A study of Mus musculus with 10 samples.

Results

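The genes described are the nuclear genes for subunits of the 5 complexes of oxidative phosphorylation and for cytochrome c, measured in right ventricular RNA from 10 mice (strain 129SV). A probe set is a group of short probes that gives 1 signal on an Affymetrix array. It was a member when its gene symbol in the array annotation began with Nduf (but not Ndufaf), Uqcr, Cox4i, Cox5, Cox6, Cox7, Cox8 or Atp5, or was Sdha, Sdhb, Sdhc, Sdhd, Cyc1 or Cycs. Of 22690 probe sets on the array, 154 met this rule, for 81 of 12393 genes named by a probe set with 1 symbol. A filter on low signals left 146 members of 79 genes for testing, and the 8 others, among them the only probe sets of Cox7c and Cox6b2, were too dim to test. The study set 4 trained plakoglobin (+/-) mice beside 4 trained wildtype mice, and had 1 untrained mouse of each genotype. Plakoglobin, the product of Jup, is a protein of the junctions that hold heart muscle cells together, and the (+/-) mice carry 1 disrupted copy. Trained mice had swum 6 times a week in water of 35 °C, in sessions lengthened from 5 to 90 min. Each trained group held 2 males and 2 females aged 6 months, while both untrained mice were females aged 10 months, so training and age cannot be told apart. The untrained groups have no replicate, and the p-values for training rest on the assumption that these mice vary like the trained ones.

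Oxidative phosphorylation takes place in the inner mitochondrial membrane. Complex I (NADH dehydrogenase) and complex II (succinate dehydrogenase) pass electrons to coenzyme Q, complex III hands them to the small carrier cytochrome c, and complex IV (cytochrome c oxidase) gives them to oxygen. The proton gradient that complexes I, III and IV build drives complex V, the ATP synthase. Heart muscle is among the tissues richest in mitochondria, and several complex IV subunits exist there as a muscle form beside a widely expressed form.

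The arrays measured 1 mouse each, and the number of mice limits the precision. Median signals ranged from 897.8 to 1150 over the arrays. Replicate 1 of each trained group, both males, had 3'-to-5' control ratios above 2 for GAPDH (2.5 in wildtype and 2.98 in plakoglobin (+/-)) and for actin (3.05 and 2.65); replicate 2 of trained wildtype, a female, had 17.8 for GAPDH and 1.29 for actin. Several results that rest on these arrays are given with and without them. The Jup signal read 1992 to 3520 in trained plakoglobin (+/-) and 2928 to 4322 in trained wildtype mice, and in the untrained pair it was higher in the mouse labelled plakoglobin (+/-) (3157) than in the one labelled wildtype (2387), so genotypes are given as labelled. The 7 ventricular myocyte markers, such as Myh6 and Myl2, summed to 1364082 to 1905873 per mouse, against 1457 to 3113 for 7 skeletal muscle markers and 1770 to 3785 for 3 atrial markers. Of the 3 fat markers on the array, Ucp1, which defines brown fat, read at most 209.5 and Adipoq at most 714.6. The third, Cidea, read 1558 to 3673 in trained mice. It read 4982 in the untrained wildtype and 4110.5 in the untrained plakoglobin (+/-) mouse.

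The promoters of the members were examined for words that the choice by name did not use. RefSeq promoter windows of build GRCm38.p6 were at hand for 66 of the 81 genes (71 windows), and the 250 bases before the annotated start were searched on both strands for known binding words. The word of Nrf1, a transcription factor known for its sites in genes of respiration, is GCGCANGCG, with N for any base. It lay in 13 of the 71 windows (18.3%) and in 5.16% of all 32851 windows in the table. The word of Gabpa, CCGGAAGT, lay in 3 windows (4.23% against 2.88%), and those of Esrra, TCAAGGTCA, and Yy1, AAGATGGCG, in 1 window each (1.41%, against 0.387% and 0.606%). The shorter words of Sp1 (GGGCGG, 33.8% against 32.7%) and Nfy (CCAAT, 39.4% against 33.8%) differed less. The Nrf1 word can overlap itself, and some of the other words can overlap themselves or the Nrf1 word. Member windows held more G and C, at a median of 57.6% against 52.4%, and the words of Nrf1, Gabpa and Sp1 are rich in both. The following stretches show 1 Nrf1 word for complexes I, II, IV and V and for cytochrome c, and the words of Gabpa in a complex III gene and of Esrra in a complex V gene. Each runs 5′ to 3′ on the gene's own strand, here the minus strand in all cases, with these words in capitals. A match is a description of the letters, not a measured binding site.
Ndufs5 (Nrf1), chr4:123718246-123718314: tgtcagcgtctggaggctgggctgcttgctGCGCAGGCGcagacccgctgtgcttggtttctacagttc
Sdha (Nrf1), chr13:74350300-74350368: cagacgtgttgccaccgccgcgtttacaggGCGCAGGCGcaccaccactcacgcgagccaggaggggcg
Cox6a1 (Nrf1), chr5:115349082-115349150: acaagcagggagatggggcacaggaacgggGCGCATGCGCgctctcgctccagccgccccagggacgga
Cycs (Nrf1), chr6:50566592-50566660: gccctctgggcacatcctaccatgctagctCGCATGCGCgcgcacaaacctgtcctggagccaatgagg
Atp5k (Nrf1), chr5:108434411-108434479: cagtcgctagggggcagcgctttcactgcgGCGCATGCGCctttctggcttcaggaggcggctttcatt
Uqcr11 (Gabpa), chr10:80406850-80406917: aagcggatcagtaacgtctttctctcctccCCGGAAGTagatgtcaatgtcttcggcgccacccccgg
Atp5g3 (Esrra), chr2:73911340-73911408: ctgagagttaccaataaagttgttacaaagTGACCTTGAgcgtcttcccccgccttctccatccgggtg
Ndufa12 and Atp5md, on which the results below turn, held only the Sp1 word, and Atp5md the Nfy word too.

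The mean signal of a tested member over the 10 mice ran from 761 to 274835, with a median of 60026, against a median of 2070 over all 13576 probe sets tested. Signals of different probe sets depend on their probes, so this contrast, like that of the marker sums above, is a coarse one, and single members are compared between mice only. Among the 8 trained mice the SD of the log2 signal had a median of 0.25 over the members, against 0.38 over all probe sets tested. The members were also brighter, and the spread was not compared at a like signal. By complex the median SD was 0.24 for I, 0.28 for II, 0.23 for III, 0.24 for IV and 0.27 for V. In each mouse the median deviation of the 146 members from their own medians was small, between -0.13 in trained plakoglobin (+/-) replicate 2 and 0.10 in the untrained plakoglobin (+/-) and trained wildtype replicate 4 mice. The arrays of high control ratio spread most, with 18 members in the wildtype and 11 in the plakoglobin (+/-) mouse named replicate 1 at least 2-fold below their own medians, against 0 to 2 in each other mouse.

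**Figure D1:**
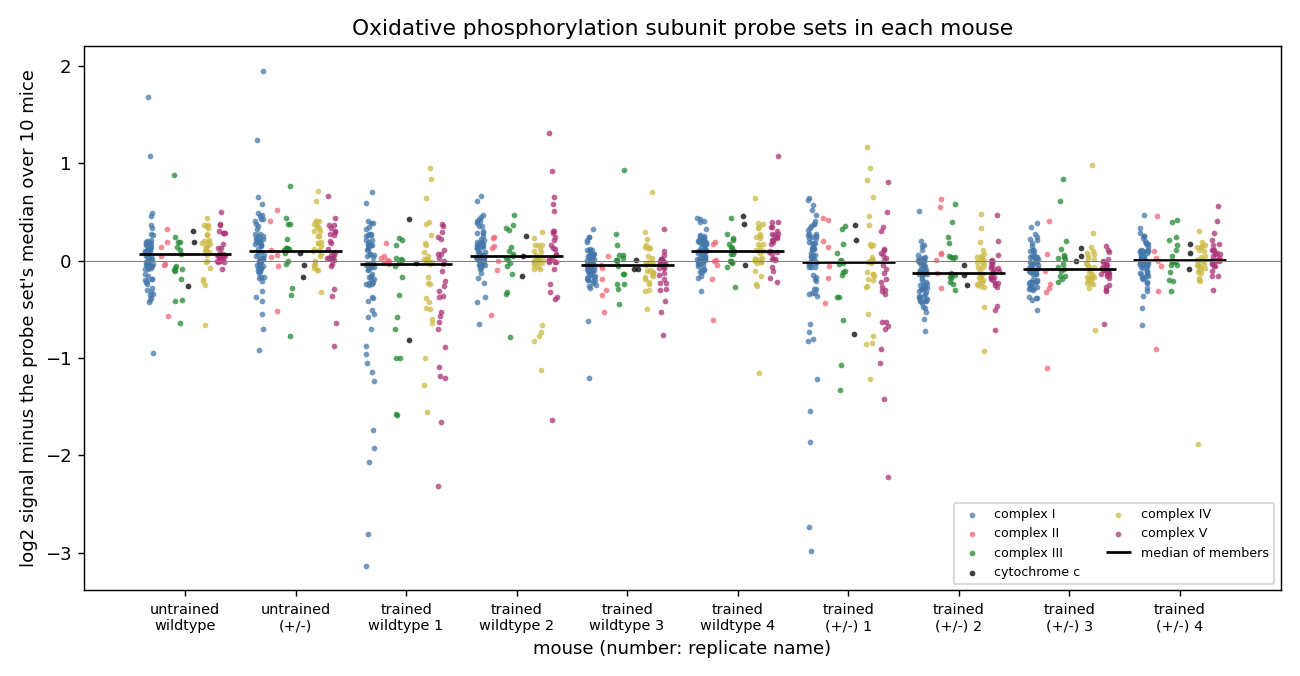
Each point is a single member probe sets, coloured by complex; the vertical axis is its log2 signal minus its own median over the 10 mice, and black bars are the medians of the 146 members per mouse, which lie between -0.13 and 0.10. The points of trained wildtype replicate 1 and trained plakoglobin (+/-) replicate 1 reach furthest down.

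Only 1 subunit gene, the complex I gene Ndufa12, differed past the threshold between trained and untrained mice. It was lower in every trained mouse on 2 of its 3 tested probe sets and not on the other. By limma 2 of 146 members passed an adjusted p of 0.05, both of them Ndufa12, while 0.626% of all probe sets passed. At an unadjusted p of 0.05, 10 members were past the threshold (2 higher and 8 lower in trained mice), or 5 of 79 genes, against 8.68% of all probe sets; this share is near the background. Counted without a test, 89 of 146 members were lower in trained mice (median log2 change -0.06), as were 6814 of 13576 probe sets in all (median -0.00). With quantile normalization the split was 70 of 146 lower (median 0.01) and with cyclic loess 85 of 146 (-0.05), so the slight lean of the whole group to lower signals does not hold across scalings. In 16 members of 13 genes (10.96%) each of the 8 trained mice read lower than either untrained mouse, against 4.61% of all probe sets, and in 1 member (0.685%) each read higher, against 4.63%. Since both untrained mice were female and the fit has a sex term, the training change is that between the 4 trained females and the 2 untrained females, and leaving out male arrays does not move it.

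**Figure D2:**
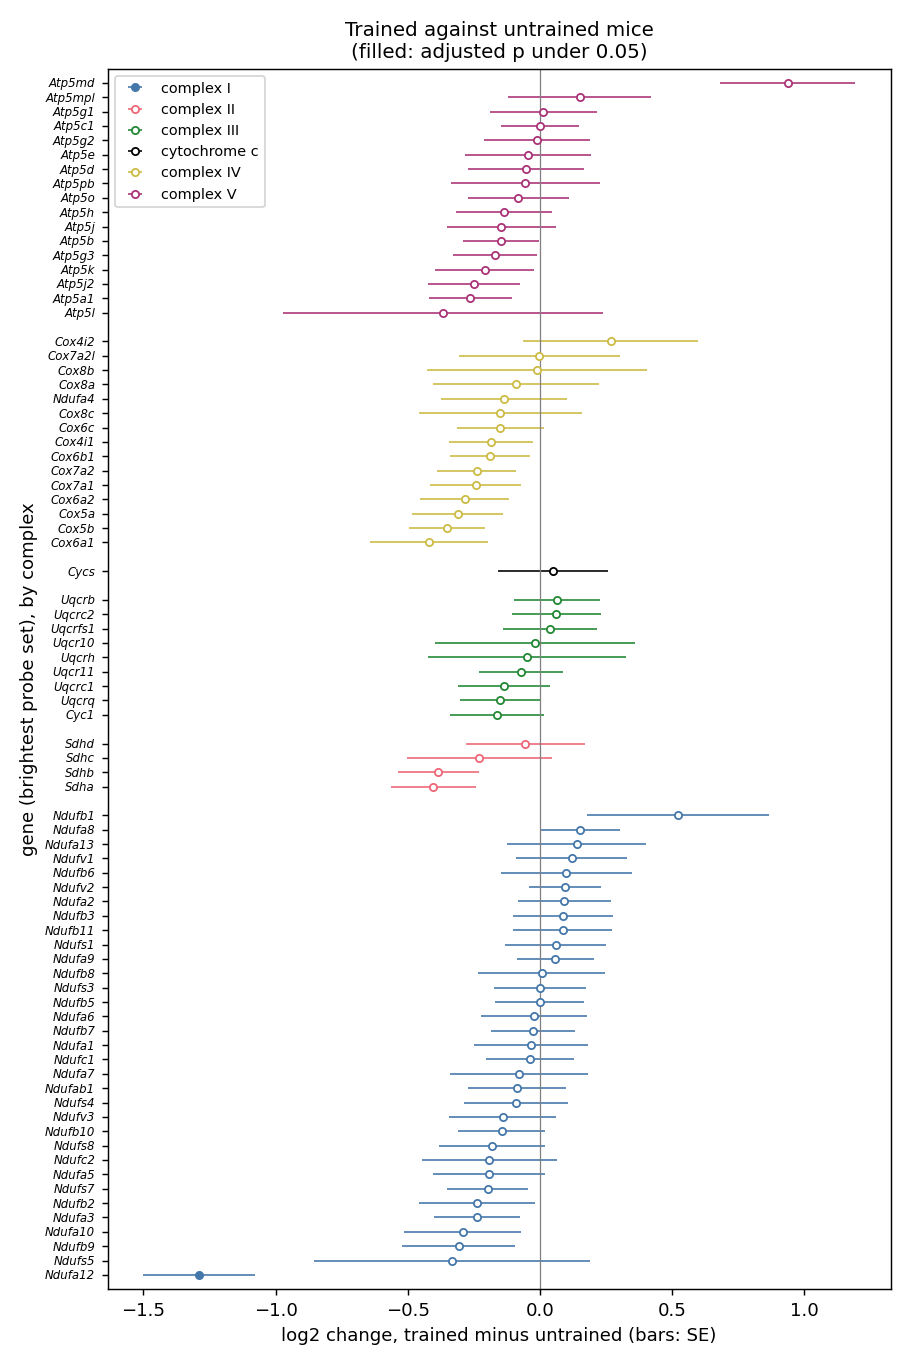
Log2 change in trained against untrained mice for the brightest probe set of each of 79 genes, ordered within each complex, with the SE as a bar; filled points have an adjusted p under 0.05 by limma. Ndufa12 at -1.29 is the filled point, Atp5md at 0.94 lies furthest to the right, and 14 of 15 complex IV genes lie left of 0.

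Complex I takes electrons from NADH and pumps protons; its core subunits carry flavin and iron-sulfur clusters, and a larger number of accessory subunits surround them. Ndufa12, an accessory subunit, was read by 3 probe sets bright enough to test. On probe set 1455806_x_at the signal was 126386 in the untrained wildtype and 152017 in the untrained plakoglobin (+/-) mouse. The trained wildtype mice read 40232, 38480, 36686 and 46930, and the trained plakoglobin (+/-) mice 43404, 26034, 32434 and 34683. The groups did not overlap: the highest trained mouse, at 46930, lay far below the lower untrained one. The log2 change was -1.88 (SE 0.22, limma adjusted p = 0.00321), a signal 0.272 times that of untrained mice, lower in 8 of 8 trained mice.

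Probe set 1433513_x_at of Ndufa12 read 103919 and 116270 in the untrained wildtype and plakoglobin (+/-) mice. It read 51593, 47519, 42925 and 45474 in trained wildtype and 58210, 36912, 37128 and 50979 in trained plakoglobin (+/-) mice, again with no overlap. The log2 change was -1.29 (SE 0.21, adjusted p = 0.0185). The third tested probe set of the gene, 1418814_s_at, did not show this: 52254 and 47234 in the untrained mice lay within the trained range of 41422 to 66894, with a log2 change of 0.15 (SE 0.20, adjusted p = 0.908). The fourth, 1425919_at, read 10 to 550 and was not tested. The change in Ndufa12 thus stands on 2 of its 3 tested probe sets. Which transcripts each of them reads, of this gene or of others, was not examined here. Over the mice left out in turn, the adjusted p of 1455806_x_at ranged from 0.00204 to 0.106 and passed except without the untrained plakoglobin (+/-) mouse (log2 change -1.61). That of 1433513_x_at ranged from 0.0112 to 0.315 and did not pass without either untrained mouse (0.125 and 0.315), trained plakoglobin (+/-) replicate 3 (0.0606) or trained wildtype replicate 4 (0.0631).

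**Figure D3:**
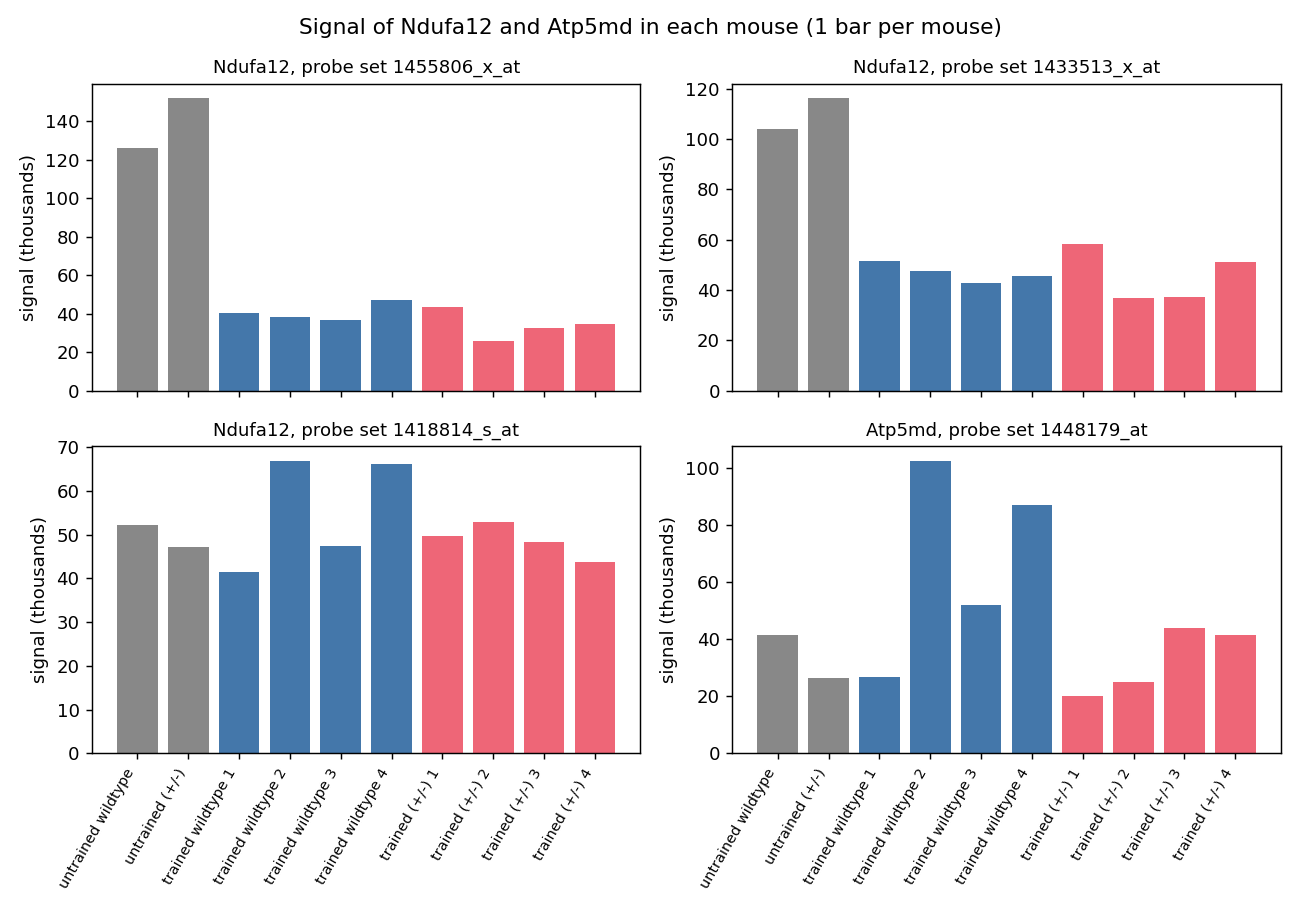
Signal, 1 bar per mouse, for the 3 tested probe sets of Ndufa12 and the probe set of Atp5md; grey bars are untrained, blue trained wildtype and red trained plakoglobin (+/-) mice. On 2 Ndufa12 probe sets both untrained mice stand above all 8 trained mice, while on 1418814_s_at they lie among them.

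The complex I members lay on both sides of 0, with 32 of 64 probe sets lower, Ndufa12 included, and a median log2 change of -0.00. With quantile normalization 27 of 64 were lower (median 0.03). Of the 6 core genes 2 were lower (median 0.03), between Ndufs7 at -0.20 (SE 0.15) and Ndufv1, which holds the NADH-binding site, at 0.12 (SE 0.21); of 27 accessory genes 18 were lower (median -0.04). After Ndufa12 the lowest change by gene was that of Ndufs5 (-0.33, SE 0.52) and the highest that of Ndufb1 (0.52, SE 0.35), both accessory subunits, and neither passed. Ndufs8, a core iron-sulfur subunit with 6 tested probe sets, had changes from -0.21 to 0.54, with the sign depending on the probe set. Further probe sets with all trained mice below both untrained ones were those of Ndufa3 (1428464_at, -0.38), Ndufb9 (1452184_at, -0.31), Ndufc1 (1416285_at, -0.35) and Ndufc2 (1416366_at, -0.52), all accessory subunits, with adjusted p from 0.593 to 0.798.

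Complex II, which also works in the citric acid cycle, had lower signals in trained mice on the brightest probe set of all 4 genes (median log2 change -0.31). Over all 7 probe sets 5 were lower (median -0.16), and 0 passed. Sdhb, its iron-sulfur subunit, read 171154 in the untrained wildtype and 215374 in the untrained plakoglobin (+/-) mouse. It read 150673, 140411, 144927 and 149236 in trained wildtype and 165350, 137656, 139276 and 160767 in trained plakoglobin (+/-) mice. All trained mice lay below both untrained ones, with a log2 change of -0.38 (SE 0.15, adjusted p = 0.480); with quantile normalization it was -0.14. Sdha, the flavin subunit, read 93650 and 99503 in the untrained mice and 61603 to 83459 in the trained ones (-0.40, SE 0.16, adjusted p = 0.482). Its second probe set, 1426689_s_at, had -0.16 (SE 0.23). The membrane anchors Sdhc and Sdhd had -0.23 (SE 0.27) and -0.06 (SE 0.22) on their brightest probe sets, and 0.06 (SE 0.38) and 0.21 (SE 0.30) on the others.

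The brightest probe sets of the complex III genes had training changes between -0.16 (SE 0.18) for Cyc1, which encodes cytochrome c1, and 0.06 (SE 0.16) for Uqcrb, with 6 of 9 genes lower and a median of -0.05. Over its 16 probe sets 9 were lower (median -0.02), and with quantile normalization 6 (0.01). The probe set of lowest p was 1435757_a_at of Uqcrc2, a core protein. It read 66091 and 68932 in the untrained mice, 102029, 80036, 98533 and 94236 in trained wildtype and 86715, 90514, 89209 and 70766 in trained plakoglobin (+/-) mice. It is the 1 member with all trained mice above both untrained ones, at 0.30 (SE 0.16, adjusted p = 0.675), while the brighter probe set of the gene, 1428631_a_at, had 0.06 (SE 0.17). Cytochrome c (Cycs) had 3 probe sets, all slightly higher. The one of lowest p, 1422484_at, read 46905 and 54268 in the untrained mice, 75547, 58032, 52967 and 54232 in trained wildtype and 72497, 50481, 61311 and 59243 in trained plakoglobin (+/-) mice. These ranges overlapped, and the change was 0.20 (SE 0.20, adjusted p = 0.873).

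In complex IV, 25 of 29 probe sets and 14 of 15 genes were lower in trained mice (median log2 change -0.18 for both), with Cox4i2, a form known for its induction by low oxygen, as the exception (0.27, SE 0.33). The direction held with quantile normalization (20 of 29 lower, median -0.10) and cyclic loess (24 of 29, -0.14), but 0 of 29 passed and 4 had an unadjusted p under 0.05, so this is a count and not a test. Cox5b, a zinc-binding subunit, had the lowest p, on 1416902_a_at. The untrained mice read 91920 and 89902, the trained wildtype mice 57848, 67135, 68895 and 79381, and the trained plakoglobin (+/-) mice 68504, 60804, 58543 and 65014. The change was -0.44 (SE 0.16, adjusted p = 0.431), lower in 8 of 8. Of its 5 tested probe sets all were lower, from -0.44 to -0.23, and on 3 of them the groups did not overlap. Ndufa4, named for complex I but known as a subunit of complex IV and counted here, had -0.14 (SE 0.24). Cox6b1, Cox7a1 and 1 probe set of Cox8a also had all trained mice below both untrained ones. The 7 ventricular myocyte markers were all lower in trained mice too, with 0 passing: their sum was 1364082 to 1733878 in trained and 1728225 to 1905873 in untrained mice. Markers of endothelium (4 of 5 lower), fibroblasts (4 of 5) and leukocytes (5 of 6) leaned the same way, with 0 passing. Their sums overlapped between trained and untrained mice: 16698 to 21592 against 20487 to 23712 for endothelium, 69389 to 109703 against 92600 to 98405 for fibroblasts and 15860 to 31815 against 27243 to 28735 for leukocytes. Of the fat markers only Cidea was tested, and it was lower in trained mice without passing. The sums of the fat markers did not overlap, at 1766 to 3986 in trained and 4359 to 5208 in untrained mice, but Cidea made up most of each sum. The other fat markers, both dim and not tested, overlapped. Adipoq read 62.5 and 77 in the untrained mice and 39.5 to 714.6 in the trained ones. Ucp1 read 121.5 and 145 against 82 to 209.5. The 1 tested atrial marker, Myl4, went the other way, without passing. The part of any of these in the lower complex IV signals was not tested. In whole tissue fewer cells of a type and less RNA per cell cannot be told apart.

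The muscle and the widely expressed forms of 3 complex IV subunits were set side by side. Cox6a2, the muscle form, read 171424 and 245595 in the untrained mice and 146658 to 181620 in the trained ones (-0.28, SE 0.17). Its counterpart Cox6a1 read 37613 and 58577 against 30552 to 44974 (-0.42, SE 0.22), with -0.60 (SE 0.27) on its second probe set. Cox7a1 and Cox7a2 both had -0.24 (SE 0.17 and 0.15). Cox8b and Cox8a had -0.01 (SE 0.42) and -0.09 (SE 0.31), and the further Cox8a probe sets -0.19 (SE 0.30) and -0.45 (SE 0.43); for Cox8b the sign turned with quantile normalization, at 0.14. None of the 6 passed, and the difference between the forms was not tested.

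Complex V had 13 of 17 genes lower (median -0.08), with 1 gene apart in the other direction. Over its 27 probe sets 18 were lower (median -0.08), but with quantile normalization 12 were (0.02), so the direction of the complex turned with the scaling. Atp5md, a small membrane subunit known as DAPIT that helps join ATP synthase dimers, read 41383 in the untrained wildtype and 26520 in the untrained plakoglobin (+/-) mouse. The trained wildtype mice read 26710, 102480, 51811 and 87198, and the trained plakoglobin (+/-) mice 19930, 25146, 43853 and 41364. The trained range spans that of the untrained mice, and among trained mice of each genotype the 2 females were the highest in wildtype and in plakoglobin (+/-) alike. The training change, which compares females, was 0.94 (SE 0.25, adjusted p = 0.211). It passed without the 2 arrays of high GAPDH and actin ratio (0.94, SE 0.16, adjusted p = 0.0232) and without the 3 of high GAPDH ratio (0.86, adjusted p = 0.0184), where the error is smaller. With females only it did not pass (0.94, SE 0.17, adjusted p = 0.0520), nor with any trained mouse left out (adjusted p from 0.0782 to 0.378). The change was 0.79 without the untrained wildtype and 1.09 without the untrained plakoglobin (+/-) mouse. It was 0.37 (SE 0.43) in a fit with no sex term, which sets trained males beside untrained females. Atp5a1 and Atp5b, subunits of the catalytic part, had -0.26 (SE 0.16) and -0.15 (SE 0.15), and Atp5c1, the central stalk, 0.00 (SE 0.15). Atp5l, another membrane subunit, had all trained mice below both untrained ones (-0.37, SE 0.61), with its lowest values on the arrays of high control ratio.

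Other genes of the pathway, listed with earlier results of these data known, behaved as follows. Of 54 assembly factors, which help build the complexes without staying in them, 36 were on the array under these symbols and all were tested, 22 of them higher and 14 lower in trained mice (median 0.07). One passed: Timmdc1, a complex I assembly factor, read 198.5 in the untrained wildtype and 1777 in the untrained plakoglobin (+/-) mouse, and 5467 to 7133 in trained wildtype and 5928 to 7596 in trained plakoglobin (+/-) mice. Its change was 3.49 (SE 0.54, adjusted p = 0.0145), between 1.97 without the untrained wildtype and 5.00 without the untrained plakoglobin (+/-) mouse, and it did not pass without trained wildtype replicate 4 (adjusted p = 0.0560). The membrane protein insertases Cox18 (0.87, SE 0.29) and Oxa1l (0.85, SE 0.29) came next (adjusted p = 0.369 and 0.378). Of 7 carriers and channels of the mitochondrial membranes, 0 passed; the main ADP/ATP carrier of heart, Slc25a4, had -0.10 (SE 0.15) and the phosphate carrier Slc25a3 -0.23 (SE 0.16). Of the 13 subunits encoded by mitochondrial DNA, 1 was named in the annotation, ND5 of complex I, at -0.04 (SE 0.22).

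Genotype was compared in the 8 trained mice, the contrast the series was built on. By limma 0 of 146 members passed, as did 0% of all probe sets, and 4 members had an unadjusted p under 0.05 (1 higher and 3 lower in plakoglobin (+/-) mice), against 2.01% of all probe sets. Without a test, 90 of 146 members were lower in plakoglobin (+/-) mice, with a median log2 change of -0.06 against 0.01 over all probe sets. The direction turned with the scaling: 68 of 146 were lower with quantile normalization (median 0.01) and 62 with cyclic loess (0.02). By complex, 26 of 33 complex I genes were lower (median -0.12), 3 of 4 of complex II, 5 of 9 of complex III, 8 of 15 of complex IV and 11 of 17 of complex V. Without the 2 arrays of high GAPDH and actin ratio 107 of 146 members were lower (median -0.11), without a change in the count past the threshold. All plakoglobin (+/-) mice lay below all wildtype mice in 1 member (0.685%), against 0.796% of all probe sets, and above them in 1, against 0.803%.

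**Figure D4:**
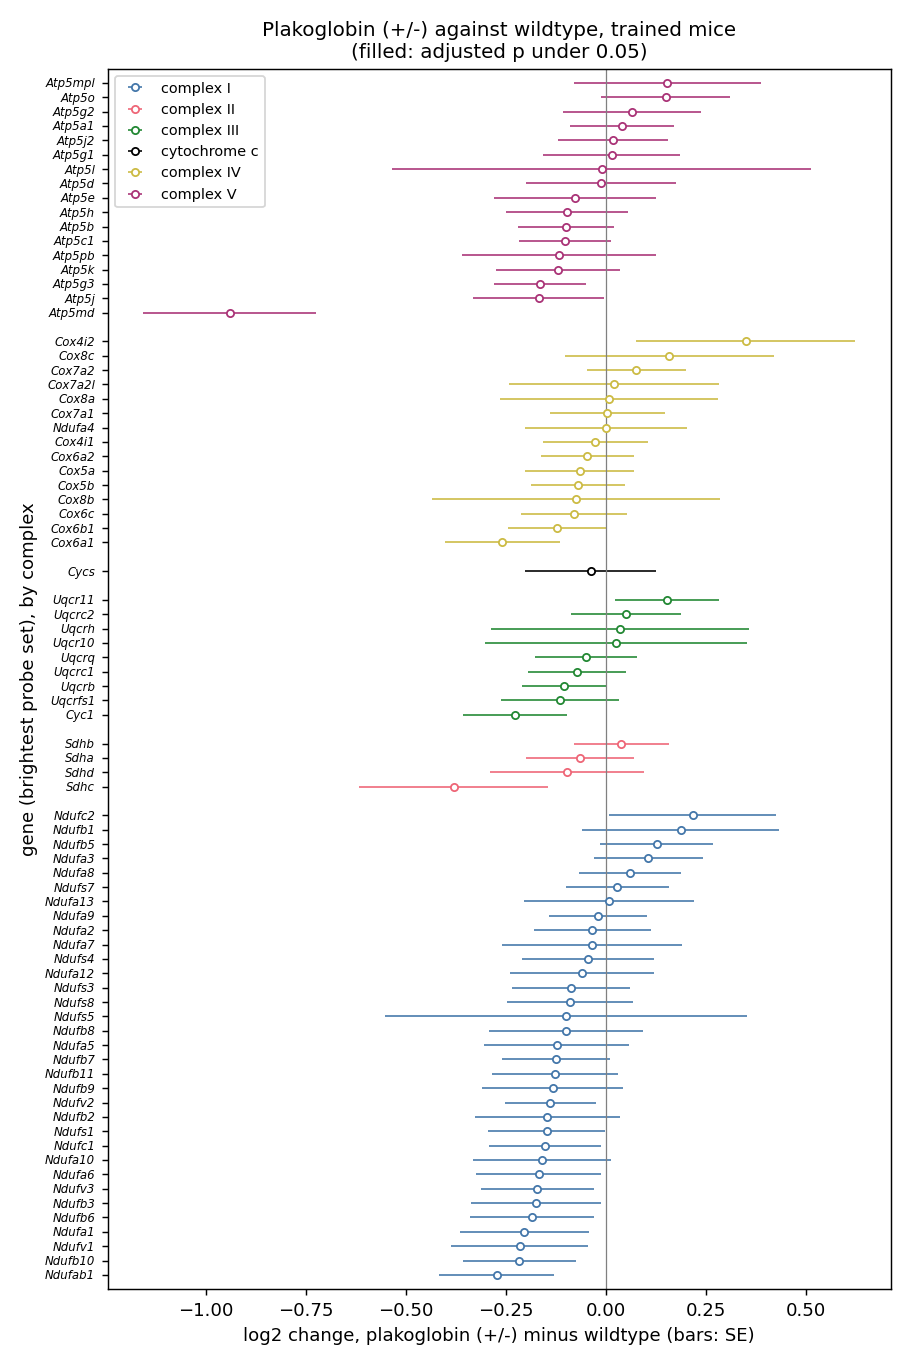
Log2 change in trained plakoglobin (+/-) against trained wildtype mice for the brightest probe set of each of 79 genes, ordered within each complex, with the SE as a bar. No point is filled, as none had an adjusted p under 0.05 by limma, and Atp5md at -0.94 stands apart on the left.

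The member of lowest p by genotype was Atp5md, whose signals are given above. Plakoglobin (+/-) males read 19930 and 25146 against 26710 and 51811 in wildtype males, and plakoglobin (+/-) females 43853 and 41364 against 102480 and 87198 in wildtype females. Within each sex both plakoglobin (+/-) mice lay below both wildtype mice, though the ranges over all mice overlapped. The mean was 32574 ± 11826 against 67050 ± 34258 (SD, n = 4 each), and the log2 change -0.94 (SE 0.22) had an unadjusted p of 0.00149 and did not pass after adjustment. It was -1.11 (SE 0.12, adjusted p = 0.174) without the 2 arrays of high GAPDH and actin ratio. The untrained pair ran the same way, with 26520 against 41383.

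The next was a dim probe set of the complex II anchor Sdhd, 1437489_x_at. It read 2708, 1781, 2294 and 1714 in trained wildtype and 3503, 3827, 3483 and 3596 in trained plakoglobin (+/-) mice, with no overlap (0.79, SE 0.18, unadjusted p = 0.00175). The untrained pair ran the other way, with 2534 in wildtype and 1828 in plakoglobin (+/-). The bright probe set of Sdhd, 1428235_at, had -0.10 (SE 0.19), with 24942 to 37405 in wildtype and 25412 to 36784 in plakoglobin (+/-) mice. The 2 probe sets of the gene therefore differ in sign.

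In complex I the lowest p was that of Ndufb11 on 1416056_a_at. It read 97495, 104556, 81722 and 107163 in trained wildtype and 93642, 56810, 76701 and 72870 in trained plakoglobin (+/-) mice, with overlap (-0.40, SE 0.17, unadjusted p = 0.0416). The untrained mice were alike, at 94103 and 95708. The brightest probe set of the gene, 1455911_x_at, had -0.13 (SE 0.16), and the last, 1416057_at, 0.12 (SE 0.14). In complex IV it was Cox5a on 1439267_x_at, which read 55824, 46905, 54161 and 60658 in trained wildtype and 46224, 24390, 44411 and 45084 in trained plakoglobin (+/-) mice. These groups did not overlap (-0.48, SE 0.21, unadjusted p = 0.0463), but 1 mouse, replicate 2, sets much of the difference: without it the change was -0.25. Without the 3 arrays of high GAPDH ratio it was -0.74 (SE 0.18, adjusted p = 0.709). The other probe sets of Cox5a had -0.07 (SE 0.14) and 0.02 (SE 0.16).

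In complex III the lowest p was that of a dim probe set of Uqcrq, 1452613_at. It read 888, 538, 962 and 766 in trained wildtype and 860, 1387, 1646 and 1236 in trained plakoglobin (+/-) mice (0.70, SE 0.33), while the bright one, 1430326_s_at, had -0.05 (SE 0.13). For cytochrome c the probe set 1422483_a_at read 44470, 93511, 73714 and 101499 in trained wildtype and 46403, 76068, 80876 and 73946 in trained plakoglobin (+/-) mice (-0.14, SE 0.21), with replicate 1 low in each group. None of the assembly factors or carriers passed by genotype, with 22 of 36 factors and 4 of 7 carriers lower.

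The 2 untrained mice were set against each other without a test: 88 of 146 members were higher in the plakoglobin (+/-) than in the wildtype mouse (median log2 difference 0.06, against -0.01 over all probe sets). Of the complex IV genes 12 of 15 were higher (median 0.19). The genotype by training term, which tests whether the genotype difference is another in trained than in untrained mice, passed in 0 of 146 members and in 0% of all probe sets. Its median over the members was -0.10, and turned to 0.06 with quantile normalization and to 0.05 with cyclic loess. At an unadjusted p of 0.05 it held 5 members, against 3.20% of all probe sets. Among them were Ndufb6 (1434057_at), an accessory subunit of complex I, and Cox6a1. Ndufb6 read 19839 in the untrained wildtype and 35555 in the untrained plakoglobin (+/-) mouse, against 22115 to 34743 and 24350 to 26217 in the trained groups (-1.03, SE 0.35, unadjusted p = 0.0151). These terms rest on 1 untrained mouse per genotype.

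Sex was compared in the same fit over the trained mice. By limma 0 of 146 members passed, against 0.0516% of all probe sets, and 22 had an unadjusted p under 0.05, against 8.82%. Of the 1198 probe sets in all under that p, 647 were lower and 551 higher in males, while all 22 members were lower. They came from all parts of the chain but complex II: 8 from complex I, 5 from III, 1 from IV, 1 from cytochrome c and 7 from V. Several were probe sets of the same gene, among them all 5 tested for Ndufa7 and all 3 for Uqcr10. Counted by the brightest probe set, 11 of 79 genes were under that p, all lower. Of the 4 trained males, 2 gave the arrays of high GAPDH and actin ratio, and the count of 22 is given with these arrays only. On both of these arrays 10 members of 7 genes lay at least 2-fold below the median of the other 8 mice (6.85%, against 5.47% of all probe sets), and 1 member at least 2-fold above (against 1.09%). The share is near that of all probe sets, so what follows describes single members, chosen after their values were seen.

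The largest gap was that of Ndufa7, an accessory subunit of complex I. On 1436567_a_at it read 3319 in the wildtype and 3677 in the plakoglobin (+/-) mouse, against 23942 to 36564 in the other 8 mice, which is 0.109 and 0.121 times their median. Its 5 tested probe sets read 0.109 to 0.521 times that median on these arrays, so their sizes differed within 1 gene. Atp5l read 16462 and 17469 against 80271 to 115415 in the other mice, Ndufs5 11639 and 12190 against 38909 to 62131, and the muscle form Cox8b 44349 and 55726 against 111123 to 158722. Uqcrh, the hinge protein of complex III, read 13518 and 19144 against 32902 to 50672. For Atp5j2, a membrane subunit of ATP synthase, the 2 probe sets parted: 1416269_at read 0.309 and 0.364 times the median of the other mice, while 1435395_s_at read 112477 and 139306, within the 99051 to 145882 of the other mice.

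Since these members were chosen for low values on arrays of 2 males, a smaller sex difference without those arrays follows from the choice and is given as a description. The change in males went from -1.21 to -0.08 for Atp5l, from -0.96 to -0.02 for Ndufs5, from -1.64 to -0.19 for Ndufa7 on 1436567_a_at and from -0.69 to 0.03 for Cox8b. The other 4 probe sets of Ndufa7 kept -0.30 to -0.28. Over all 146 members the count lower in males was 91 (median -0.07) with all arrays and 110 (-0.12) without these 2, but 77 with quantile normalization and 72 with cyclic loess. The part that RNA quality or labelling of these arrays plays was not tested. Atp5md was lower in males with all arrays (-1.14, unadjusted p = 0.000393, adjusted p = 0.197), and without either of the trained wildtype males replicate 1 or 3 the change was -0.90 or -1.29. It was -0.81 without the 2 arrays of high GAPDH and actin ratio and -0.76 without the 3 of high GAPDH ratio.

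**Figure D5:**
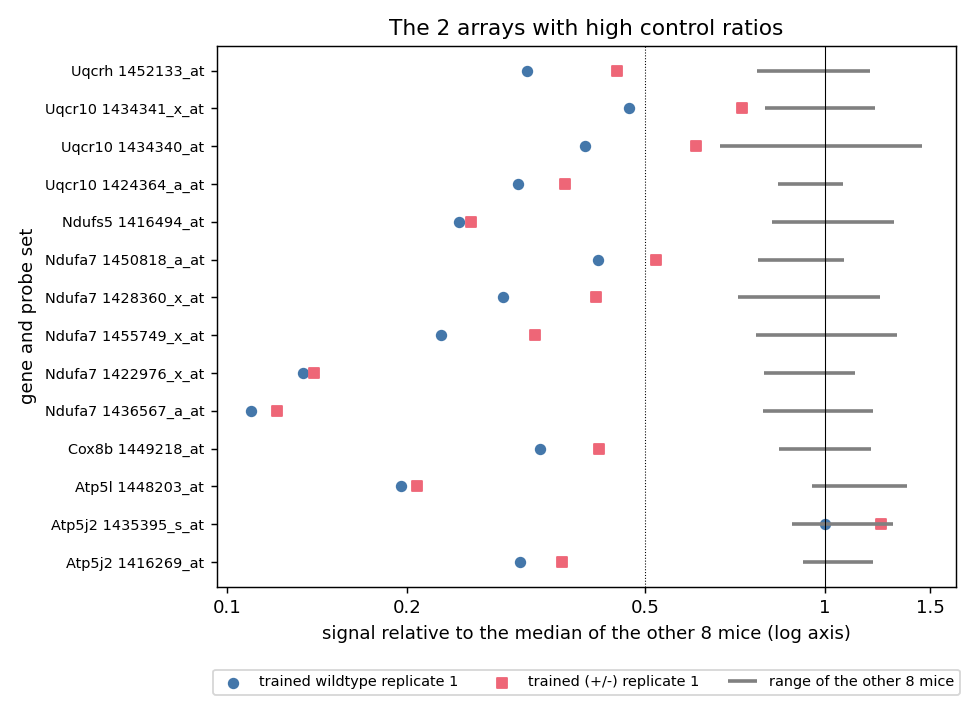
Signal on the 2 arrays of high GAPDH and actin ratio relative to the median of the other 8 mice, on a log axis, for all tested probe sets of the 7 genes with a probe set at least 2-fold low on both; grey lines span the other 8 mice. Ndufa7 reaches 0.109 of the median, while 1435395_s_at of Atp5j2 lies at 1.24 in trained plakoglobin (+/-) replicate 1.

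Probe sets of 1 gene often went different ways. Of the 43 genes with more than 1 tested probe set, 18 had changes of both signs in training and 25 by genotype, and the difference between the highest and lowest log2 change within a gene had a median of 0.24 and 0.20.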

How the data were processed

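The authors deposited linear signal intensity values made with MAS5 5.0, per the submitters' processing notes, from biotin-labelled cRNA, 1 Affymetrix array per mouse. Signals below 104 (percentile 10) were set to that value and all were log2 transformed. Of 22690 probe sets, 64 controls were set aside, and 13576 were tested whose log2 signals averaged at least their percentile 40 (a signal of 661.1). The array annotation gave 1 symbol to 20380 probe sets, none to 1606 that it did not list, and several to 691, of which 8 name a member and are not described.

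Linear models were fitted across the whole table with limma 3.58.1 in R 4.3.3 (lmFit, eBayes with trend), two-sided, adjusted by Benjamini-Hochberg at 0.05: training over 10 mice with terms for genotype and sex; genotype and sex over the 8 trained mice in 1 fit; and the genotype by training term over 10. The fit was checked on simulated data in which all 10 arrays had the spread of the trained mice. That check cannot test whether the untrained mice vary like the trained ones. Nothing says which mice share a litter, and replicate numbers are only names. A gene is represented by its brightest probe set. Named are members past the threshold, those of lowest p per complex, extremes, isoform pairs and genes whose probe sets differ in sign. Members, lists and alternatives were chosen with earlier results of these data known. Promoter windows are from RefSeq. Alternatives were other normalizations, floors, filters, variance models, sex terms, sample sets and each mouse left out. The fit without the 2 arrays of high GAPDH and actin ratio was chosen after seeing the data.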

Additional observations from a re-analysis of the deposited data

Results flagged for a closer look

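There were 44 groups of 4 trained mice (22 named probe sets by 2 genotypes). In 16 a mouse's gap to the nearest other in log2 signal, divided by the group's range, was above Dixon's 95% critical value for 4 samples. Chance flags about 1 in 20 groups, and 10 of the probe sets were chosen for low values on the 2 arrays concerned. Trained wildtype replicate 1 was the lowest of its group for Ndufa7 at 18420 (1428360_x_at), 8484.9 (1422976_x_at) and 3319.4 (1436567_a_at), for Ndufs5 at 11639, for Uqcr10 at 21240 (1424364_a_at), for Cox8b at 44349 and for Atp5l at 16462. Trained plakoglobin (+/-) replicate 1 was the lowest of its group for Ndufa7 at 8881.6 (1422976_x_at), 3676.9 (1436567_a_at) and 2226.3 (1455749_x_at), for Ndufs5 at 12190.5, for Uqcrh at 19144, for Atp5j2 at 35475 (1416269_at), for Atp5l at 17469 and for Cycs at 46403 (1422483_a_at). In a different mouse, trained plakoglobin (+/-) replicate 2 was the lowest of its group for Cox5a at 24390.1 (1439267_x_at).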

How the results depend on the processing

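The count of members past the threshold in training, 2, was 1 without a filter, 1 with eBayes without trend, 1 with 1 probe set a gene, 4 without the 3 arrays of high GAPDH ratio, and 0 to 2 with each mouse left out; it was 3 without the 2 arrays of high GAPDH and actin ratio. Without a filter and without trend, Ndufa12 on 1433513_x_at had adjusted p of 0.0864 and 0.0807. By genotype, sex and the genotype by training term 0 members passed under every alternative run. The members' median change moved with cyclic loess to 0.0224 by genotype and 0.0072 by sex, and for the genotype by training term to 0.0621 with quantile normalization and 0.0513 with cyclic loess. With each mouse left out it ranged from -0.12 to -0.00 in training, -0.10 to -0.01 by genotype, -0.12 to -0.05 by sex and -0.17 to -0.05 for the genotype by training term, which could not be fitted without either untrained mouse. The cause of these moves was not tested. Of 1533 alternatives for 72 values of single probe sets, 1412 kept the direction and the side of the threshold, 9 no longer passed, 2 newly passed and 110, for 35 values, had the other sign; none of these 35 values passed the threshold in the reported fit, and none of the 110 alternatives did. In the following, Sdhd stands for probe set 1437489_x_at, Uqcrq for 1452613_at, Uqcr10 for 1424364_a_at, Cox5a for 1439267_x_at, Cox5b for 1416902_a_at, Ndufb11 for 1416056_a_at and Atp5j2 for 1416269_at. With the GAPDH ratio as a covariate the log2 changes of other sign were, in training, Uqcrq 0.0866, Ndufa7 1436567_a_at 0.12, Uqcr10 0.12, Uqcrh 0.0166, Cox8b 0.18, and by genotype, Ndufa12 1433513_x_at 0.012, Ndufa7 1436567_a_at -0.30, Ndufa7 1455749_x_at -0.0609, Uqcr10 -0.12, Uqcrh -0.0258. With all 10 mice in 1 fit the log2 changes of other sign were, by genotype, Ndufa7 1455749_x_at -0.0549. With cyclic loess the log2 changes of other sign were, in training, Cox8b 0.0267, and by genotype, Ndufa12 1433513_x_at 0.0164, Ndufa7 1422976_x_at 0.0083, Cox8b 0.0185, Atp5l 0.0689, and by sex, Cox5b 0.0077. With no sex term the log2 changes of other sign were, in training, Cox5a -0.0275, Cycs 1422483_a_at -0.28, Ndufa7 1428360_x_at -0.41, Ndufa7 1422976_x_at -0.75, Ndufa7 1455749_x_at -0.29, Atp5j2 -0.40. With quantile normalization the log2 changes of other sign were, in training, Uqcr10 0.0132, Cox8b 0.14, and by genotype, Ndufa12 1433513_x_at 0.0269, Ndufa7 1422976_x_at 0.0393, Atp5l 0.0466, and by sex, Ndufa12 1455806_x_at 0.0013, Cox5b 0.0413. Without the 2 arrays of high GAPDH and actin ratio the log2 changes of other sign were, by genotype, Ndufa7 1436567_a_at -0.0389, Ndufa7 1455749_x_at -0.12, Uqcr10 -0.0529, Uqcrh -0.12, and by sex, Sdhb -0.0593, Cycs 1422484_at -0.17, Ndufa12 1433513_x_at -0.18, Cox8b 0.0302. When the 3 arrays with a GAPDH ratio above 2 were left out, the log2 changes of other sign were, in training, Uqcrq 0.0348, Cox8b 0.0284, and by genotype, Sdhb -0.0296, Uqcr10 -0.0426, Uqcrh -0.0249, Atp5l 0.0253, and by sex, Sdhb -0.0869, Cycs 1422484_at -0.16, Ndufa12 1433513_x_at -0.17, Ndufs5 0.0478. With each mouse left out, the ranges that hold both signs were, in training, Ndufb11 -0.30 to 0.12, Sdhd -0.42 to 0.84, Uqcrq -0.30 to 0.0623, Cox5a -0.025 to 0.19, Cycs 1422483_a_at -0.0507 to 0.0732, Ndufa7 1428360_x_at -0.0314 to 0.16, Ndufa7 1422976_x_at -0.0889 to 0.20, Uqcr10 -0.061 to 0.0616, Uqcrh -0.14 to 0.0279, Cox8b -0.09 to 0.0686, Atp5j2 -0.0036 to 0.11. They were, by genotype, Sdhb -0.0122 to 0.0936, Cycs 1422484_at -0.0682 to 0.14, Ndufa12 1433513_x_at -0.20 to 0.0654, Ndufa7 1428360_x_at -0.59 to 0.13, Ndufa7 1422976_x_at -0.61 to 0.49, Ndufa7 1436567_a_at -0.60 to 0.64, Ndufa7 1455749_x_at -0.39 to 0.34, Ndufs5 -0.51 to 0.30, Uqcr10 -0.28 to 0.29, Uqcrh -0.30 to 0.22, Cox8b -0.44 to 0.29, Atp5j2 -0.46 to 0.19, Atp5l -0.48 to 0.43. They were, by sex, Ndufa12 1455806_x_at -0.23 to 0.0615, Sdhb -0.0303 to 0.0755, Uqcrq -0.12 to 0.30, Cox5b -0.13 to 0.0056, Cox5a -0.32 to 0.045, Cycs 1422484_at -0.0299 to 0.21, Ndufa12 1433513_x_at -0.0842 to 0.18. No paired analysis was possible because the labels do not say which mice are littermates and the replicate numbers follow record order. Probe sets near the floor, and the 8 members below the filter, have no reliable level.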
